A study of Gallus gallus with 8 samples.

Results

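The developing sinoatrial node of the chick embryo (the library SAN, which the labels call the pacemaker region of the embryo) was set beside the pacemaker progenitor field (PMF), the mesoderm at Hamburger-Hamilton (HH) stage 8 named for it, to ask which RNAs differ between the forming node and its field. The design text of the series names a comparison of the inflow region with atria and ventricle. These are 2 of the 8 libraries of the series, taken by the names in the file headers. The other heart libraries were the left atrium (At), the atrioventricular junction (AVJ) at HH stage 17 to 18 and the apex of the common ventricle (Vent), and the other mesoderm libraries were the anterior (ant), left (Left) and posterior (Post) lateral plate at HH stage 8. Each library is polyadenylated RNA of tissue pooled from embryos, with no treatment or genetic change in the labels, and each group is 1 library. The labels leave out the stages of SAN, At and Vent, and At is the left side only, so stage, region, side and cell makeup cannot be told apart in any difference below.

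The sinoatrial node starts each heartbeat. In its cells the channel HCN4 carries an inward current that brings the membrane back to threshold, calcium released from internal stores adds to it. The transcription factors ISL1, SHOX2 and TBX18 take part in building the node, and TBX3 keeps the working-muscle programme, which NKX2-5 promotes, low in it. The chick node forms at the venous inflow from lateral plate mesoderm that is told apart from the rest of the heart field before the heart tube closes.

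Counts assigned to genes summed to 14047021 in SAN and 16110771 in PMF, and to between 10258697 (Vent) and 17189803 (At) in the others. Levels are counts scaled to library size (CPM) after a further scaling between libraries, and compare libraries for 1 gene, not genes with each other. A gene was called higher or lower in SAN when log2 of CPM + 1 differed from PMF by at least 1 in size, 1 of the libraries reached 5 CPM, and the 95% interval of the count ratio left out 1. With 1 library a side there is no replicate check and no p-value, and the intervals in brackets after each fold cover counting error only. In pooled tissue, fewer cells of a type and less RNA per cell cannot be told apart.

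The markers were checked against both labels. Of 6 node markers 4 were measured, and ISL1, HCN4 and CACNA1D were called higher in SAN, while TBX3 was not called. HCN4 was also called higher than PMF in At, AVJ and Vent, and CACNA1D in At. The 4 markers summed to 229 CPM in SAN, 92.4 in At, 181 in AVJ and 34.5 in Vent. In the mesoderm they summed to 91.2 CPM in PMF, 131 in ant, 116 in Left and 87.9 in Post, so they did not set PMF apart. All 6 measured heart muscle markers were higher in SAN, with a summed level of 23952 CPM in SAN against 751 in PMF. Of 7 measured mesoderm markers, 2 (TBX5 and ISL1) were higher in SAN, 2 (GATA6 and PRRX1) lower and 3 (GATA4, GATA5 and HAND2) not called. PMF also carried RNA of genes known from other germ layers, whose values are given below. Endoderm and liver markers were present in SAN too: the 5 measured summed to 1513 CPM in SAN and 821 in PMF. APOA1 alone made 1489 and 619 CPM of these.

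Of 9820 genes at 5 CPM or more in SAN or PMF, 1504 (15.3%) were called higher and 840 (8.55%) lower in SAN. These shares are the base for every list count below. Among the called genes 414 were at least 10-fold higher and 120 at least 10-fold lower, and 121 and 23 passed 100-fold. For scale, PMF and Left, the most alike pair of libraries, differed by the same rule in 49 of 9046 genes (0.542%). The split leaned on the scaling: plain CPM moved the median gene by -0.20 on the log2 scale, and then 1261 genes were called each way.

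More genes changed alike across the heart than changed at least 2-fold further in the node than in each other heart library. By the same rule 15.6% of genes were higher and 9.67% lower in At than in PMF, 14.9% and 8.05% in AVJ, and 15.7% and 11% in Vent. A gene was counted as shared when At, AVJ and Vent were called the same way against PMF and the log2 change in SAN lay within 1 of each of theirs: 529 genes (5.39% of those expressed) were shared and higher, and 340 (3.46%) shared and lower, a balance that turned round to 335 and 706 under plain CPM. A gene was counted as node-larger when its change in SAN was at least 2-fold beyond that in each of the other 3 and the counts of SAN differed from each: 116 genes (1.18%) were higher and 21 (0.214%) lower in this way. Another 18 (0.183%) and 16 (0.163%) changed at least 2-fold less in SAN than in each of the other 3, and 841 (8.56%) and 463 (4.71%) were mixed. The mixed genes include some that changed most in SAN but by less than 2-fold over the nearest heart library, such as RYR2 and HCN4. The 4 changes share PMF, so this sorting is in effect a comparison of SAN with each other heart library and not 4 independent changes. Without AVJ as a condition 197 genes were node-larger higher and 36 lower, and without Vent 32 were lower.

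**Figure D1:**
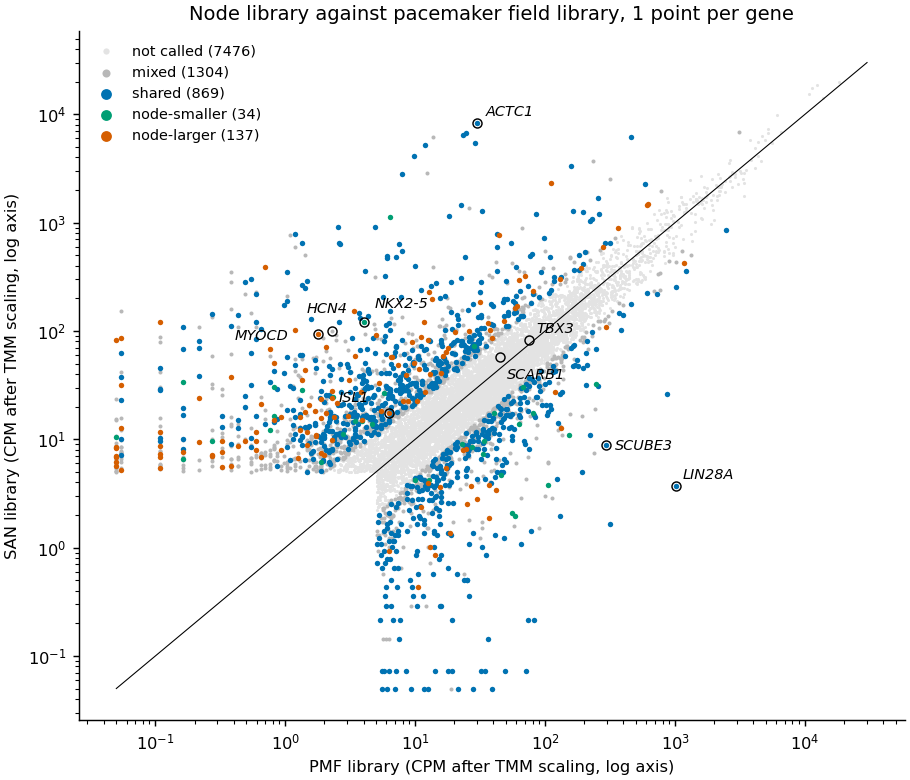
Level of each of the 9820 expressed genes in SAN (vertical) and PMF (horizontal), in CPM on log axes, with the diagonal marking equal levels and values under 0.05 drawn at 0.05. Among the shared genes (529 higher, 340 lower) ACTC1 lies far above the diagonal and LIN28A far below, while TBX3 and SCARB1 lie close to it.

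**Figure D2:**
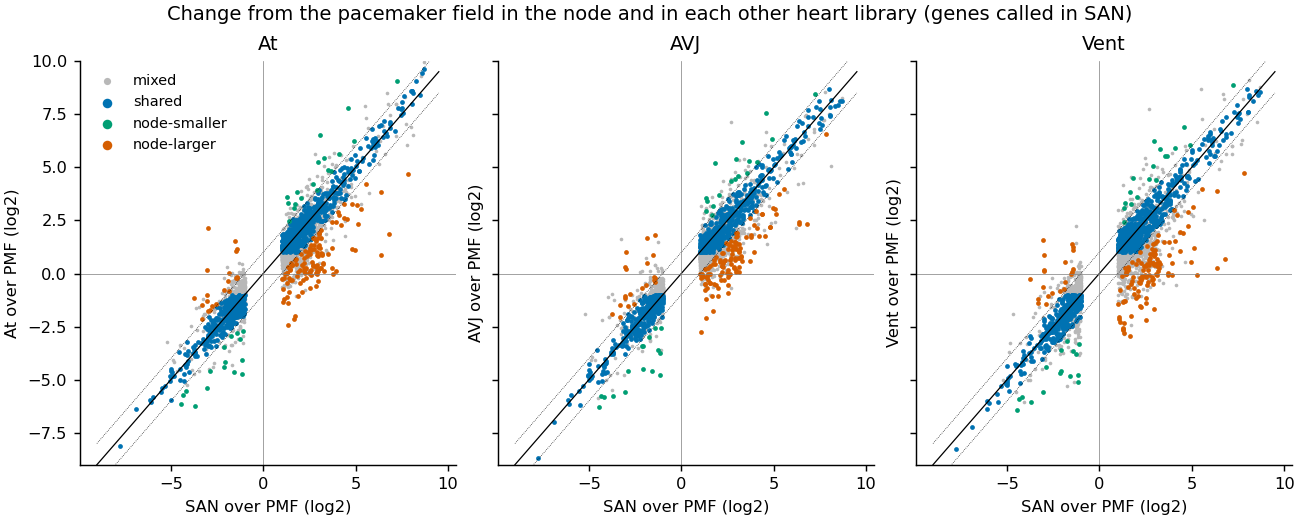
Log2 change against PMF of the genes called in SAN (horizontal) and in At, AVJ or Vent (vertical), coloured by class, with a solid line at equal change and dotted lines 2-fold either side. The node-larger genes (116 higher, 21 lower) lie beyond a dotted line in all 3 panels, since the class is defined so.

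The muscle of the node differed from the field much as the rest of the heart did. Of 26 expressed sarcomere genes 25 were higher in SAN and none lower, with a median log2 ratio of 6.20 against -0.0012 over all expressed genes, and 18 of the 25 were shared. ACTC1, the cardiac actin of the thin filament, had 8239.8 CPM in SAN, 7809 in At, 7079 in AVJ and 9614 in Vent, against 29.6 in PMF, a difference of 278-fold (256 to 303) between SAN and PMF. MYL2 (listed as MLRA), a regulatory light chain of myosin, had 5459.8 CPM in SAN, 8064 in At, 6398 in AVJ and 5432 in Vent, against 28.8 in PMF. MYBPC3, which binds thick filaments, had 909 CPM in SAN, 1345 in At, 1465 in AVJ and 1469 in Vent, against 2.54 in PMF. ACTN2, the Z-disc actinin, was 241-fold (182 to 326) above PMF. These 4 genes stood at 29.6 CPM or less in PMF, and for ACTC1 and MYL2 SAN lay among the other heart libraries, for MYBPC3 and ACTN2 below them. XIRP1, an actin-binding protein of the junctions between muscle cells, was 579.7-fold (305 to 1269) above PMF, LMOD2, a nucleator of thin filaments, 534-fold (229 to 1648) and CSRP3, a LIM protein of the Z-disc, 198-fold (134 to 306). 1 member was node-larger: ACTA2, smooth muscle actin, at 773 CPM in SAN, 303 in At, 199.8 in AVJ and 131 in Vent, against 43.9 in PMF. Actins and myosins have close copies whose reads may be shared, so single values within these families are uncertain.

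Outside the sarcomere list, TECRL, an enzyme-like membrane protein of heart muscle tied to inherited arrhythmia in humans, had 785 CPM in SAN, 736 in At, 537 in AVJ and 846 in Vent, against 1.19 in PMF. APOBEC2, a muscle protein of the deaminase family, was 249-fold (188 to 338) above PMF. Both were shared with At, AVJ and Vent.

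Calcium handling followed: 9 of 12 expressed genes were higher, 1 lower, with a median of 3.09. RYR2, the channel that releases calcium from the sarcoplasmic reticulum, had 229 CPM in SAN, 142 in At, 106 in AVJ and 101 in Vent, against 0.595 in PMF, so SAN was the highest of all and 384-fold (214 to 770.2) above PMF. ATP2A2, the pump that takes calcium back up, had 3686 CPM in SAN, 2448 in At, 1708 in AVJ and 1433 in Vent, against 232 in PMF. JPH1, a junctophilin that ties the reticulum to the surface membrane, was the one node-larger member of the list, at 44.5 CPM in SAN, 11.9 in At, 6.34 in AVJ and 15.1 in Vent, against 10.6 in PMF. TRDN, triadin, which anchors the release channel's complex, was 696-fold (124 to 27541) higher in SAN than in PMF, where it had 1 count. The member that was lower was STIM1, the calcium sensor of the endoplasmic reticulum, at 5.75 CPM in SAN, 4.67 in At, 3.996 in AVJ and 7.16 in Vent, against 18.2 in PMF. It overlaps another listed gene.

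Of 10 expressed genes that couple working muscle cells 7 were higher in SAN and 2 lower, with a median of 2.97. GJA5, a fast gap junction protein, was 162-fold (78.4 to 405) above PMF, yet SAN held the lowest heart level. It had 61.4 CPM in SAN, 329 in At, 68.3 in AVJ and 571 in Vent, against 0.379 in PMF. DSP, desmoplakin of the desmosome, had 900.1 CPM in SAN, 432 in At, 574 in AVJ and 349 in Vent, against 66.7 in PMF, with SAN the highest. GJA1, connexin 43, was lower in every heart library than in the field, at 12.1 CPM in SAN, 18.2 in At, 20.2 in AVJ and 41.6 in Vent, against 125 in PMF, and SAN was 10.3-fold (8.84 to 12.2) below PMF. CTNNA3, a catenin of the intercalated disc, was higher in SAN than in PMF but 4.63-fold (4.02 to 5.37) lower than in the nearest heart library. GJA1 and CTNNA3 each overlap another listed gene.

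Energy metabolism was covered by a pair of lists. In that of respiratory chain and citrate cycle genes encoded in the nucleus, 4 of 29 were called higher and none lower (median 0.69), a share of higher calls near the 15.3% of all expressed genes. SDHB of complex II, 1 of the 4, had 218 CPM in SAN, 265 in At, 241 in AVJ and 264 in Vent, against 80.2 in PMF. Of 11 glycolysis and fatty acid genes 5 were higher and none lower (median 0.71). LPL, lipoprotein lipase, was node-larger at 32.97 CPM in SAN, 11.7 in At, 15.98 in AVJ and 6.94 in Vent, against 5.301 in PMF. LDHA, the muscle-type lactate dehydrogenase, stayed below the rest of the heart at 73.1 CPM in SAN, 299 in At, 341 in AVJ and 157 in Vent, against 28.6 in PMF. None of 44 ribosomal protein genes was called either way, with a median of 0.06 that turned to -0.15 under plain CPM. Of 26 cell cycle genes 1 was higher, 2 lower and 23 not called (median -0.49). Neither share exceeded that of all expressed genes, 15.3% higher and 8.55% lower. Against PMF the list's median was -0.29 in At, -0.37 in AVJ and -0.28 in Vent. CDKN1B, the p27 inhibitor of cyclin-dependent kinases, was 2.78-fold (2.43 to 3.19) higher, and the S-phase genes CCNE1 and RRM2 were 2.86-fold (2.34 to 3.52) and 2.65-fold (2.51 to 2.804) lower in SAN.

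Red cell RNA was higher in all 4 heart libraries than in the field. Globins have close copies, but HBE, an epsilon-type beta globin, was 443-fold (388 to 509) above PMF with 5251 CPM in SAN, 10160.2 in At, 3579.6 in AVJ and 4849.6 in Vent, against 11.8 in PMF. HBAD, an alpha globin, had 2789 CPM in SAN, 4817 in At, 2127 in AVJ and 2445 in Vent, against 7.897 in PMF. Of 7 expressed erythroid genes 5 were higher and 1 (TAL1) lower, with a median of 3.90, and the list summed to 14349 CPM in SAN, 29916 in At, 10323 in AVJ, 13917 in Vent and 127 in PMF. The shared higher genes together took 10.9% of the scaled counts of SAN, 13.5% of At, 10.4% of AVJ and 10.9% of Vent, against 1.07% of PMF. The class rule fixes the lower share of these genes in PMF. HBE and HBAD count among them, while HBBA, a beta globin, was mixed, at 6114 CPM in SAN, 14734 in At, 4482 in AVJ and 6452 in Vent, against 13.7 in PMF. HBBA overlaps another listed gene on the same strand. The part of blood cells in other results was not tested.

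The 116 genes whose gain was larger in SAN than in At, AVJ and Vent, of which 65 carry a symbol, had a median log2 ratio of 2.67. In 79 of them no other heart library was called higher than PMF, in 12 all 3 were, and 18 were called lower in at least 1. In PMF 44 of them reached 5 CPM. Together they took 1.39% of the scaled counts of SAN, 0.440% of At, 0.393% of AVJ, 0.209% of Vent and 0.326% of PMF. The class rule fixes that this share is largest in SAN.

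MYOCD, myocardin, the coactivator with which serum response factor drives muscle genes, was one of the node-larger genes of largest ratio. It had 93.3 CPM in SAN, 25.2 in At, 21.7 in AVJ and 23.7 in Vent, against 1.78 in PMF, 52.3-fold (37.04 to 76.3) over PMF and 3.71-fold (3.298 to 4.17) over the nearest heart library. At stage 8 it was highest in ant, at 13.7 CPM. VIM, vimentin, the intermediate filament of mesenchyme, had 2302 CPM in SAN, 684 in At, 783 in AVJ and 431 in Vent, against 109.9 in PMF, and it overlaps a microRNA gene. Like ACTA2, it was highest in SAN, as the class requires against PMF, At, AVJ and Vent.

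Secreted and signalling proteins were also among the node-larger genes of largest ratio. CHGB, chromogranin B, a protein of secretory granules in neuroendocrine cells, had 152 CPM in SAN, 21.1 in At, 29.2 in AVJ and 9.01 in Vent, against 3.35 in PMF, 45.4-fold (35.3 to 59.5) over PMF and 5.22-fold (4.65 to 5.87) over the nearest heart library. PRKAR2B, a regulatory subunit of the cyclic AMP-dependent kinase, had 50.1 CPM in SAN, 3.09 in At, 7.38 in AVJ and 7.49 in Vent, against 0.811 in PMF. SGK1, a kinase induced by glucocorticoids, stood at 120.2 CPM in SAN, 12.8 in At, 17.7 in AVJ and 16.1 in Vent, against 11.6 in PMF, so At, AVJ and Vent lay near PMF and SAN stood 6.78-fold (5.86 to 7.88) above the nearest of them. NEURL1B, a ubiquitin ligase that acts on Notch ligands, had 102 CPM in SAN, 39.5 in At, 33.6 in AVJ and 33.5 in Vent, against 1.19 in PMF. SOD3, the extracellular superoxide dismutase, had 68.5 CPM in SAN, 13.7 in At, 22.4 in AVJ and 0.651 in Vent, against 0.757 in PMF. SFRP2, a secreted Wnt antagonist, stood at 198 CPM in SAN, 13.4 in At, 50.1 in AVJ and 39.3 in Vent, against 13.5 in PMF. IGSF11, an adhesion molecule of the immunoglobulin family, was 99.04-fold (47.7 to 248) over PMF, and SEZ6L 32.5-fold (18.3 to 63.7). For all of these SAN was the highest of the 8 libraries, which the class rule fixes for all but ant, Left and Post.

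GKN2, gastrokine 2, known as a secreted protein of the stomach lining, had 85.7 CPM in SAN, 13.999 in At, 4.26 in AVJ and 14.8 in Vent, against 0.0541 in PMF, where that level is 1 count, and a ratio of SAN to PMF of 1585-fold (284 to 62637). VWF, the clotting glycoprotein of endothelium, had 11.6 CPM in SAN, 1.098 in At, 2.61 in AVJ and 2.06 in Vent, against 0.108 in PMF, where that level is 2 counts, and a ratio of SAN to PMF of 107-fold (29.1 to 890.4). OIT3 had 90.9 CPM in SAN, 5.42 in At, 11.1 in AVJ and 4.77 in Vent, against 4.98 in PMF. Both VWF and OIT3 came from the endothelium list, of which 10 of 18 expressed members were higher and 3 lower in SAN than in PMF (median 1.38). The list as a whole summed to 551 CPM in SAN, 446 in At, 298 in AVJ, 505 in Vent and 198 in PMF. Its sum in SAN was close to that in Vent, with OIT3 alone making 90.9 CPM in SAN and 4.77 in Vent. VWF and OIT3, its 2 node-larger members, were highest in SAN, while some other members were not. TIE1 had 24.8 CPM in SAN, 45.2 in At, 24.6 in AVJ and 70.2 in Vent. NFATC1 had 10.1 CPM in SAN, 26.5 in At, 17.3 in AVJ and 39.2 in Vent. TAL1 and SOX18 were among the 3 members lower in SAN than in PMF. The part of endothelial cells in the node-larger genes was not tested.

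**Figure D3:**
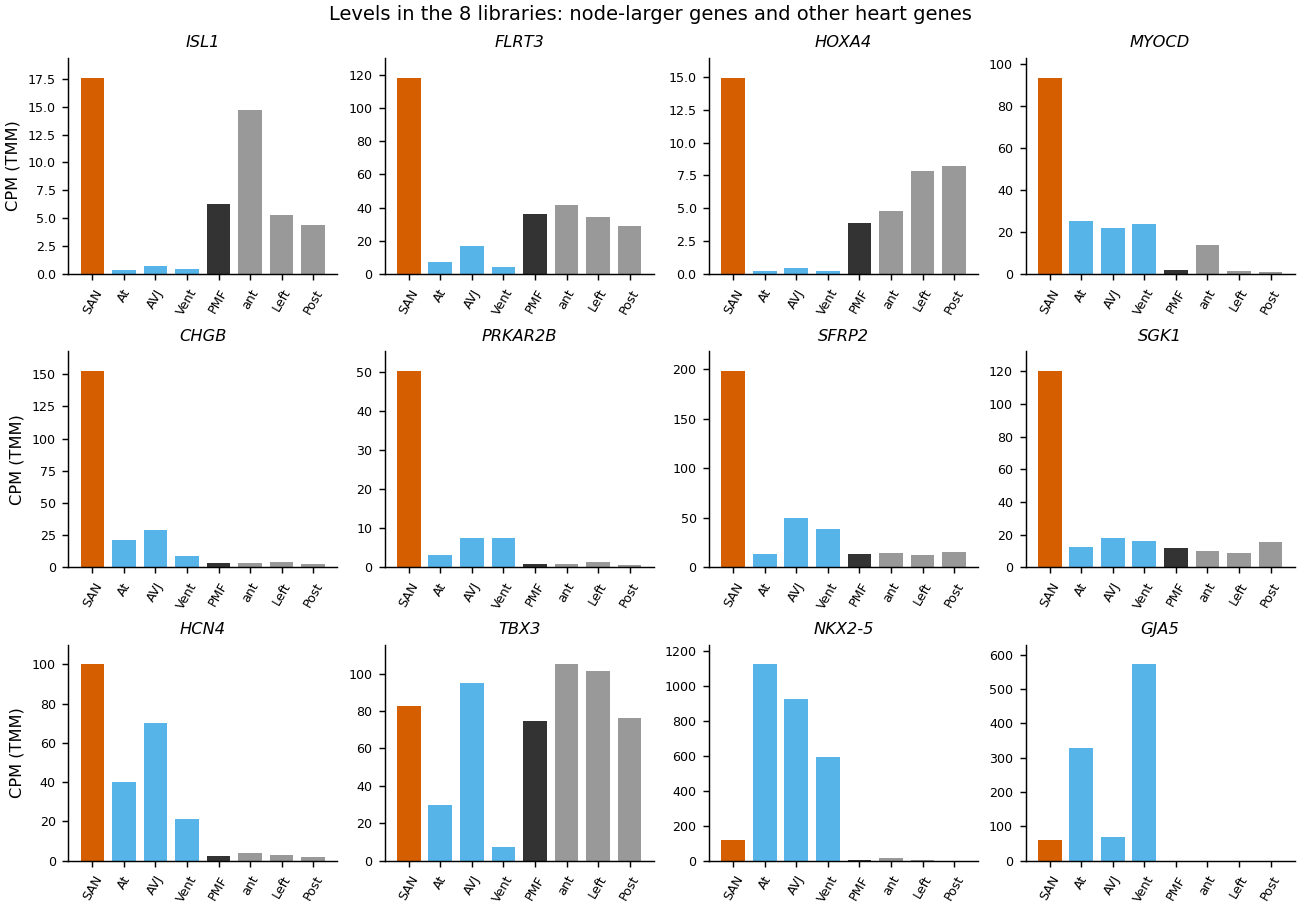
CPM in each of the 8 libraries (1 bar per library, no replicates) for 8 node-larger genes and for HCN4, TBX3, NKX2-5 and GJA5. SAN (orange) is the highest bar for the first 9, while NKX2-5 and GJA5 are far lower in SAN than in At. For the 8 node-larger genes the class rule sets SAN above At, AVJ, Vent and PMF.

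Among pacemaker genes, 9 of 12 expressed list members were higher in SAN than in PMF and 1 lower, with a median of 1.56. HCN4 had 99.9 CPM in SAN, 40.3 in At, 69.9 in AVJ and 21.5 in Vent, against 2.27 in PMF, 43.99-fold (32.4 to 61.3) over the field. Its gain did not reach the node-larger class because AVJ stood only 1.43-fold (1.31 to 1.56) below SAN. CACNA1D, the low-threshold L-type calcium channel of the node, had 28.3 CPM in SAN, 21.96 in At, 14.9 in AVJ and 5.43 in Vent, against 7.897 in PMF, a decline from SAN through At and AVJ to Vent. CACNA1G, a T-type calcium channel outside the naming rule but 1 of the 2 node-larger members with ISL1, had 22.5 CPM in SAN, 3.43 in At, 8.69 in AVJ and 1.52 in Vent, against 10.2 in PMF. It overlaps another listed gene. CACNA1C, the main L-type channel of heart muscle, was 58.04-fold (31.3 to 122) higher than in PMF and similar in all 4 heart libraries, and CHRM2, the muscarinic receptor through which the vagus slows the heart, was 19.7-fold (14.4 to 27.6) higher and shared as well. SMOC2, a matricellular protein, had 65.2 CPM in SAN, 9.54 in At, 38.9 in AVJ and 26.9 in Vent, against 2.06 in PMF.

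Among the transcription factors, TBX3 stood at much the same level in field and node: it had 82.8 CPM in SAN, 29.8 in At, 95.1 in AVJ and 7.16 in Vent, against 74.7 in PMF, with 105 in ant, 101 in Left and 76.01 in Post, and the ratio of SAN to PMF was 1.11-fold (1.02 to 1.199). It was not called, since the size missed the threshold. TBX5, which patterns the inflow and atria, was shared, at 481 CPM in SAN, 777 in At, 612 in AVJ and 308 in Vent, against 24.02 in PMF. NR2F2, the atrial factor COUP-TFII, had 382 CPM in SAN, 206 in At, 74.7 in AVJ and 20.5 in Vent, against 115 in PMF, and it overlaps another listed gene. GATA6, a zinc finger factor of early mesoderm and heart, was 2.33-fold (2.15 to 2.53) lower in SAN than in PMF. In the list of cardiac transcription factors 10 of 18 expressed members were higher and 3 lower (median 1.26).

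NKX2-5, the homeodomain factor of working muscle, rose in SAN, but less than in At, AVJ and Vent. It had 120.2 CPM in SAN, 1123 in At, 926 in AVJ and 594 in Vent, against 4.003 in PMF, so SAN was 30.03-fold (23.8 to 38.4) above the field and 4.94-fold (4.68 to 5.23) below the nearest heart library. LDHA and CTNNA3 above are in the same class of 18.

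ISL1 and FLRT3 were the 2 genes (0.0195% of 10258 expressed in these 5 libraries) called higher in SAN than in PMF and lower in each of At, AVJ and Vent. ISL1, a LIM homeodomain factor of heart progenitors and pacemaker cells, lies on chromosome Z from 14559795 to 14572244 (plus strand) by the deposited coordinates, for which no source used here names a build. It had 17.6 CPM in SAN, 0.343 in At, 0.695 in AVJ and 0.434 in Vent, against 6.27 in PMF, 2.81-fold (2.24 to 3.53) over PMF and 25.3-fold (12.7 to 59.3) over the nearest heart library. FLRT3, a membrane protein that binds FGF receptors and Unc5 guidance receptors, lies on chromosome 3 from 4598862 to 4600812 (minus strand). It had 118 CPM in SAN, 7.41 in At, 16.9 in AVJ and 3.91 in Vent, against 36.2 in PMF, 3.27-fold (2.98 to 3.58) over PMF and 7.01-fold (6.04 to 8.18) over the nearest heart library. Both were thus present in the mesoderm, near absent or low in the other heart libraries and highest in SAN, though ISL1 in ant was close to it at 14.7 CPM. The opposite calls put SAN above PMF, and PMF above At, AVJ and Vent, by definition. Without AVJ as a condition 9 genes had opposite calls, and without At 6. Plain CPM, a pseudocount of 0.25 CPM and no minimum level each gave 3.

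The HOX genes, which record position along the body axis, were mostly lower in SAN than in the field. Of 6 expressed members 5 were lower in SAN than in PMF and 1 higher (median -1.28), and the list summed to 59.1 CPM in SAN, 6.52 in At, 16.3 in AVJ, 2.82 in Vent and 178 in PMF. HOXA4 was the node-larger member, at 14.9 CPM in SAN, 0.206 in At, 0.434 in AVJ and 0.217 in Vent, against 3.89 in PMF. The other mesoderm libraries held more HOXA4 than PMF, with 4.81 in ant, 7.87 in Left and 8.24 in Post, so the gain was smaller against them. HOXA3 had 17.6 CPM in SAN, 1.44 in At, 0.521 in AVJ and 0.217 in Vent, against 40.5 in PMF, so SAN was 2.299-fold (1.99 to 2.67) below the field and 12.2-fold (7.81 to 20.1) above the nearest heart library. HOXB5 had 4.17 CPM in SAN, 0.961 in At, 1.303 in AVJ and 0.109 in Vent, against 12.8 in PMF. For HOXB1 the values were 2.87 CPM in SAN, 0.755 in At, 1.04 in AVJ and 0 in Vent, against 65.3 in PMF. HOXB5 and HOXB1 each overlap the listed HOXB8, so their reads are uncertain, as are those of HOXB8, which was shared and lower, at 0.934 CPM in SAN, 0.0686 in At, 1.04 in AVJ and 0.217 in Vent, against 10.3 in PMF.

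In 13 genes (0.127% of 10258) the other 3 heart libraries were all called lower than PMF while SAN was not, and SAN stood at least 2-fold above each of them on the scale of CPM + 1. Without AVJ as a condition there were 45 such genes, and without At 20. The foremost was SCARB1, the scavenger receptor that takes up lipid from high-density lipoprotein, on chromosome 15 from 4543038 to 4559251 (plus strand). It had 57.2 CPM in SAN, 2.81 in At, 5.65 in AVJ and 2.93 in Vent, against 44.8 in PMF, a ratio of SAN to PMF of 1.28-fold (1.16 to 1.41) and of SAN to the nearest heart library of 10.1-fold (7.86 to 13.3). SCARB1 was also 1 of the 5 genes (0.054% of 9264) called higher in PMF than in each other mesoderm library, which held 5.24 in ant, 6.65 in Left and 7.12 in Post. It was the only one of the 5 that was not lower in SAN than in PMF. In the files it overlaps UBB on the other strand, a gene at 1520.5 CPM in SAN and 1573 in PMF.

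The remaining named genes of this set were guidance, Wnt and Hedgehog proteins among others. PLXNA2, a plexin receptor of semaphorins, had 132 CPM in SAN, 37.1 in At, 49.5 in AVJ and 20.6 in Vent, against 186 in PMF. SEMA6A, a transmembrane semaphorin, had 38.1 CPM in SAN, 11.1 in At, 15.6 in AVJ and 8.46 in Vent, against 51.2 in PMF. In both, SAN lay between PMF and the other heart libraries. SFRP5, a secreted Wnt antagonist that marks the inflow progenitors in the mouse, had 12.2 CPM in SAN, 5.15 in At, 4.43 in AVJ and 2.496 in Vent, against 13.3 in PMF. BOC, a Hedgehog co-receptor, and GPC4, a glypican, stood 2.17-fold (1.66 to 2.87) and 2.07-fold (1.91 to 2.24) above the nearest heart library. NSG1, a protein of neuronal endosomes, had 33.8 CPM in SAN, 6.38 in At, 4.43 in AVJ and 6.402 in Vent, against 16.6 in PMF. SAN was 2.03-fold (1.76 to 2.36) above PMF there, and its log2 ratio of 0.98 only just missed the threshold of 1. SLC4A8, a bicarbonate transporter, had 11.3 CPM in SAN, 2.13 in At, 3.47 in AVJ and 1.302 in Vent, against 14.3 in PMF. SFRP5 overlaps another listed gene.

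The other 4 field genes were lower in SAN. SCUBE3, a secreted protein with EGF-like repeats, was 61.4-fold (47.2 to 81.4) higher in PMF than in the nearest other mesoderm library and had 8.84 CPM in SAN, 9.61 in At, 8.86 in AVJ and 5.43 in Vent, against 295 in PMF, so SAN was 33.4-fold (27.9 to 40.3) below the field and level with the rest of the heart. LRRC52, a leucine-rich repeat protein, had 2.59 CPM in SAN, 3.71 in At, 1.74 in AVJ and 1.19 in Vent, against 19.4 in PMF. It lies within MGST3 on the same strand in the files, a gene at 1265 CPM in SAN and 196 in PMF, so its reads are uncertain. SLC2A5, a fructose transporter, had 0.287 CPM in SAN, 0.549 in At, 0.174 in AVJ and 4.67 in Vent, against 9.25 in PMF. The fifth gene is listed as SNORA3, a name of a small nucleolar RNA, lies within RPL27A and had 5.53 CPM in SAN, 8.17 in At, 0.174 in AVJ and 0 in Vent, against 13.1 in PMF.

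**Figure D4:**
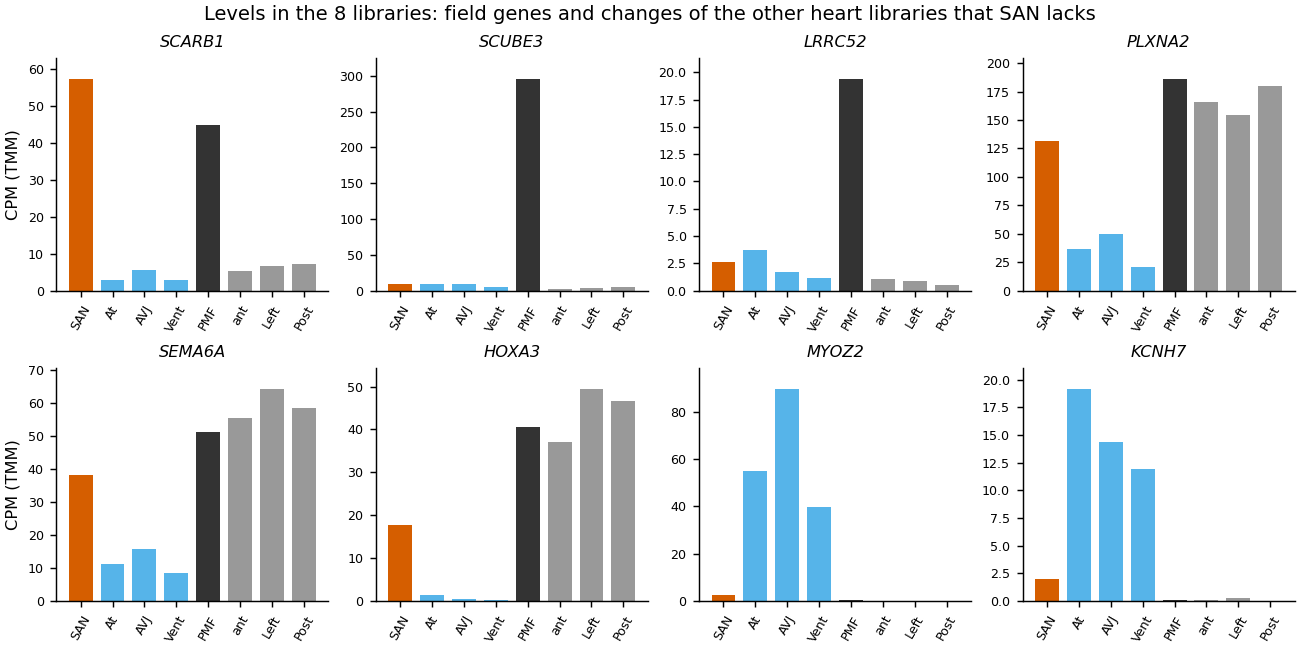
CPM in each of the 8 libraries (1 bar per library, no replicates) for 3 field genes, for PLXNA2, SEMA6A and HOXA3, and for MYOZ2 and KCNH7. SCARB1 is high in SAN and PMF alone, SCUBE3 and LRRC52 in PMF alone, and MYOZ2 and KCNH7 in At, AVJ and Vent but not in SAN.

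In 30 genes (0.292% of 10258) the other 3 heart libraries were all called higher than PMF while SAN was not. With no minimum level 20 of the 30 stayed in this class, and under plain CPM 17. Leaving out At, AVJ or Vent as a condition gave 58, 62 and 53 such genes. MYOZ2, calsarcin-1, a Z-disc protein that binds calcineurin, had 2.44 CPM in SAN, 54.97 in At, 89.6 in AVJ and 39.8 in Vent, against 0.325 in PMF, 16.3-fold (11.5 to 23.9) lower in SAN than in the nearest heart library. IRX5, an Iroquois factor that shapes repolarization in ventricular muscle of the mouse, had 0.575 CPM in SAN, 6.11 in At, 14.7 in AVJ and 31.9 in Vent, against 1.62 in PMF. KCNH7, a potassium channel of the ERG family, had 2.01 CPM in SAN, 19.1 in At, 14.4 in AVJ and 11.9 in Vent, against 0.0541 in PMF, with 1 count in PMF. MYOZ2 and KCNH7 stood above PMF in SAN too, by 7.53-fold (3.12 to 21.9) and 37.2-fold (6.15 to 1521), but under the minimum of 5 CPM. VCAM1, an adhesion molecule of heart muscle and epicardium, had 4.67 CPM in SAN, 24.7 in At, 19.5 in AVJ and 39.1 in Vent, against 0.0541 in PMF, also with 1 count in PMF, and its level in SAN missed the same minimum. Its ratio of SAN to PMF was 86.3-fold (14.96 to 3462).

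For the other named genes of this set the gaps were as follows. The level in SAN was 4.52-fold (3.53 to 5.85) below the nearest heart library for DNAJC12, a co-chaperone, 4.62-fold (3.21 to 6.81) for MGAT3, a glycosyltransferase, and 3.4998-fold (2.85 to 4.32) for STXBP6, a SNARE-binding protein. It was 3.07-fold (2.53 to 3.73) below for KIF26B, an unconventional kinesin, 2.73-fold (2.55 to 2.93) for TESC, a calcium-binding protein, and 3.12-fold (2.16 to 4.58) for INPP4B, a phosphoinositide phosphatase. Some of these genes were above PMF in SAN too, short of the threshold. The ratio of SAN to PMF was 2.35-fold (1.61 to 3.49) for DNAJC12, with a log2 ratio of 0.97. It was 1.95-fold (1.46 to 2.62) for STXBP6, 1.70-fold (1.55 to 1.86) for TESC and 1.24-fold (0.805 to 1.92) for INPP4B. MGAT3 was 1.95-fold (1.31 to 2.94) lower in SAN than in PMF. KIF26B was level between SAN and PMF, at 10.1 CPM in SAN and 10.01 in PMF, and overlaps 2 other listed genes.

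The shared losses were led by genes of the early embryo. LIN28A, the RNA-binding protein that blocks maturation of let-7 microRNAs, had 3.66 CPM in SAN, 2.68 in At, 1.48 in AVJ and 2.28 in Vent, against 1009 in PMF, 275-fold (209 to 370.1) lower in SAN. Its relative LIN28B fell less, at 16.2 CPM in SAN, 14.4 in At, 11.99 in AVJ and 20.8 in Vent, against 84.1 in PMF. In the list of RNA-binding and pluripotency-linked genes 7 of 16 expressed members were lower and 2 higher (median -0.77). The higher ones were RBM24 and RBM20, splicing factors of heart muscle, at 14.1-fold (13.1 to 15.2) and 3.48-fold (3.05 to 3.99) above PMF. NR6A1, the germ cell nuclear factor that silences pluripotency genes, had 4.96 CPM in SAN, 7.07 in At, 7.12 in AVJ and 8.35 in Vent, against 190.4 in PMF. PRTG, protogenin, a receptor of the early embryo, had 26.1 CPM in SAN, 37.1 in At, 44.04 in AVJ and 25.1 in Vent, against 862 in PMF.

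FST, follistatin, which binds activins, had 3 counts in SAN and 82.5 CPM in PMF, a loss of 383-fold (131 to 1859). OSR2, a zinc finger factor of trunk mesoderm, was 40.6-fold (23.1 to 78.97) lower and SPP1, osteopontin, 53.6-fold (34.6 to 88.1) lower in SAN. In the list of cardiac and early mesoderm genes 9 of 12 expressed members were lower in SAN and 2 (ISL1 and FGF8, the second named after its values were seen) higher, with a median of -1.83. OSR1 had 1.58 CPM in SAN, 4.73 in At, 0 in AVJ and 0.217 in Vent, against 57.98 in PMF. MYCN, a MYC-family factor of proliferating progenitors, fell further in SAN than elsewhere in the heart, at 12.6 CPM in SAN, 29.2 in At, 30.9 in AVJ and 57.7 in Vent, against 132 in PMF.

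Other losses were of genes known from epithelia and other germ layers. PDZK1IP1, a small membrane protein of epithelia, had no count in any heart library and 27.7 CPM in PMF, so SAN was at least 129-fold lower against a floor of 3 counts. SHH, the Hedgehog ligand of notochord and endoderm, had 1 count in SAN and 32.3 CPM in PMF, a ratio of PMF to SAN of 449-fold (80.4 to 17783), and it overlaps 4 listed genes. In the endoderm and liver list 4 of 7 expressed members were lower and 1 higher (median -3.05), and in the list of ectoderm and epithelium 5 of 7 were lower and 2 higher (median -2.10). The other mesoderm libraries held PDZK1IP1 as well, in CPM at 22.5 in ant, 28.8 in Left and 34.7 in Post. The part that any endoderm in the dissected mesoderm may have in the losses was not tested.

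Some members of the endoderm and liver list were higher in SAN than in each other heart library. APOA1, the main protein of high-density lipoprotein, was node-larger, at 1489 CPM in SAN, 635 in At, 436 in AVJ and 98.4 in Vent, against 619 in PMF. The other mesoderm libraries held more APOA1 than PMF, with 698 in ant, 681 in Left and 796 in Post. FGB, a fibrinogen chain, fell less in SAN than in the rest of the heart, with 10.99 CPM in SAN, 1.03 in At, 1.82 in AVJ and 1.302 in Vent, against 152 in PMF. TTR, transthyretin, did so too, with 4.67 CPM in SAN, 0.137 in At, 0 in AVJ and 0 in Vent, against 46.03 in PMF. FGA, another fibrinogen chain, was not called, at 6.68 CPM in SAN and 3.89 in PMF, with no count in At, AVJ or Vent. The whole list summed to 1532 CPM in SAN, 672 in At, 455 in AVJ, 159 in Vent and 907 in PMF, most of it APOA1. Its members not named in this paragraph went the other way, together lower in SAN than in At and Vent, though not than in AVJ. Of the 5 measured endoderm and liver markers none was under 1 CPM in SAN, while 3 were in each of At, AVJ and Vent. The part of liver or endoderm RNA in the node-larger genes was not tested. APOA1 overlaps an antisense gene of almost the same level, so the strand its reads come from is uncertain.

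The 21 genes whose loss was larger in SAN included MYCN and matrix genes. FN1, fibronectin, had 423 CPM in SAN, 2460.5 in At, 943 in AVJ and 3037 in Vent, against 1172 in PMF, 2.23-fold (2.16 to 2.303) below the nearest heart library, and it overlaps another listed gene. HAS2, the synthase of the hyaluronan in cardiac jelly, had 3.59 CPM in SAN, 15.6 in At, 22.7 in AVJ and 11.5 in Vent, against 15.5 in PMF. LTBP2, a latent TGF-beta binding protein of the matrix, had 2.37 CPM in SAN, 5.83 in At, 36.9 in AVJ and 16.4 in Vent, against 11.03 in PMF, and it overlaps another listed gene. WNT11, a ligand of the non-canonical Wnt pathway, stood at 5.46 CPM in SAN, 51.8 in At, 33.01 in AVJ and 17.04 in Vent, against 17.4 in PMF. CDH1, E-cadherin, had 27.1 CPM in SAN, 68.4 in At, 74.4 in AVJ and 67.6 in Vent, against 119.6 in PMF. In each, SAN held the lowest level of the 5 libraries, as the class requires. HEBP1 and SLC29A1, a heme-binding protein and a nucleoside transporter, were 2.998-fold (2.44 to 3.72) and 2.92-fold (2.37 to 3.64) lower in SAN. In 11 of the 21 no other heart library was called lower than PMF, and 7 were called higher in at least 1.

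In the full matrix list 12 of 26 expressed genes were higher in SAN and 5 lower (median 0.66). Over all expressed genes the shares were 15.3% higher and 8.55% lower, also for the lists that follow. SPON1, F-spondin, had 386 CPM in SAN, 268 in At, 172 in AVJ and 259 in Vent, against 13.6 in PMF. COL3A1, a fibrillar collagen, had 81.3 CPM in SAN, 20.4 in At, 82.3 in AVJ and 24.6 in Vent, against 2.87 in PMF. ELN, elastin of arterial walls, was node-larger at 23.9 CPM in SAN, 5.01 in At, 8.17 in AVJ and 7.704 in Vent, against 2.27 in PMF, though Left held 26.2 CPM. HAPLN1, which links hyaluronan to proteoglycans, and FBLN1, fibulin 1, were 17.3-fold (13.9 to 21.8) and 11.9-fold (10.4 to 13.6) lower in SAN than in PMF. Among 12 expressed genes of cushion mesenchyme and the atrioventricular canal 2 were higher and 6 lower (median -0.94), and their sum was lower in SAN than in AVJ: 432 CPM in SAN, 281 in At, 924 in AVJ, 173 in Vent and 560.1 in PMF. Adhesion genes went both ways, 6 higher and 7 lower of 16 (median 0.13, which turned to -0.07 under plain CPM), with CDH2, N-cadherin of heart muscle, 6.401-fold (6.04 to 6.78) higher and CLDN3 and EPCAM of epithelia 16.5-fold (12.7 to 21.7) and 10.8-fold (8.78 to 13.5) lower. CLDN3 overlaps another listed gene.

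Signalling pathways showed mixed changes, to be set beside 15.3% higher and 8.55% lower among all expressed genes. Of 14 retinoic acid genes 8 were lower in SAN and 1 higher (median -1.30). ALDH1A2, the main enzyme that makes retinoic acid in the embryo, was not called, at 517 CPM in SAN, 252 in At, 469.8 in AVJ and 169 in Vent, against 394 in PMF, and it overlaps another listed gene. CYP26B1, which breaks retinoic acid down, was the one that gained, at 42.3 CPM in SAN, 37.7 in At, 27.1 in AVJ and 7.16 in Vent, against 1.19 in PMF. DHRS3, which turns retinal back to retinol, and the receptor RARB were 4.06-fold (3.603 to 4.59) and 4.39-fold (3.78 to 5.12) lower, and the binding protein CRABP1 12.998-fold (8.19 to 21.9) lower. RARB overlaps other listed genes.

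In the Wnt list 6 of 23 were higher and 4 lower (median -0.32), beside 15.3% and 8.55% of all expressed genes. The gains included the antagonist SFRP1, node-larger like SFRP2, at 297 CPM in SAN, 106 in At, 80.6 in AVJ and 20.9 in Vent, against 63.2 in PMF. RSPO3, an agonist, had 199.9 CPM in SAN, 36.03 in At, 278 in AVJ and 12.5 in Vent, against 17.5 in PMF, and overlaps another listed gene. NOTUM, an enzyme that inactivates Wnt proteins, was 10.2-fold (6.39 to 17.2) lower in SAN. In the BMP and TGF-beta list 6 of 15 were higher and 4 lower (median 0.03, which turned to -0.18 under plain CPM). BMP4, a ligand, had 51.01 CPM in SAN, 15.99 in At, 46.6 in AVJ and 15.7 in Vent, against 18.8 in PMF. BMP2, a ligand as well, had 62.4 CPM in SAN, 15.4 in At, 55.6 in AVJ and 2.496 in Vent, against 24.3 in PMF. SMAD6, an inhibitor that BMP signals induce, stood at 328 CPM in SAN, 186 in At, 256 in AVJ and 83.5 in Vent, against 37.2 in PMF. TGFB2, a TGF-beta ligand, was 6.55-fold (5.802 to 7.41) higher. For BMP4, BMP2 and TGFB2, SAN and AVJ stood above At and Vent. TGFB3 and LTBP1, also called higher in SAN, did not follow. TGFB3 had 81.0 CPM in SAN, 157 in At, 57.8 in AVJ and 108 in Vent, against 25.8 in PMF. It overlaps another listed gene. LTBP1 had 279 CPM in SAN, 280 in At, 198 in AVJ and 132 in Vent, against 50.5 in PMF.

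FGF and other receptor kinase genes were split, with 6 of 22 higher and 6 lower (median -0.15), beside 15.3% and 8.55% of all expressed genes. The receptors FGFR3, FGFR2 and PDGFRA were 5.83-fold (5.13 to 6.65), 3.78-fold (3.42 to 4.18) and 3.81-fold (3.296 to 4.43) lower in SAN, and FLRT2, a relative of FLRT3, 4.58-fold (3.67 to 5.77) higher. Of 11 Notch and Hedgehog genes 6 were lower and 2 higher (median -1.11), and the Hedgehog targets PTCH1 and GLI1 were 7.27-fold (5.61 to 9.56) and 11.4-fold (7.51 to 17.96) lower.

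Secreted peptides had 4 of 6 expressed members higher and 1 (PENK) lower (median 2.43), beside 15.3% and 8.55% of all expressed genes. NPPA, the atrial natriuretic peptide precursor, had 599 CPM in SAN, 197 in At, 72.8 in AVJ and 1224 in Vent, against 1.19 in PMF, 504-fold (333 to 804) over PMF. PENK, proenkephalin, had 1.51 CPM in SAN, 1.99 in At, 16.2 in AVJ and 0.217 in Vent, against 32.6 in PMF. Of 4 expressed nervous system genes 3 were higher and 1 (GAP43) lower (median 2.77). NEFL, a neurofilament, had 56.5 CPM in SAN, 35.3 in At, 15.03 in AVJ and 47.4 in Vent, against 2.22 in PMF. GAP43, a growth cone protein, had 8.33 CPM in SAN, 17.2 in At, 43.9 in AVJ and 7.595 in Vent, against 42.3 in PMF. The 2 measured nerve markers SOX10 and STMN2 summed to 1.72 CPM in SAN and 0.811 in PMF. Of 8 epicardial genes 2 (BNC1 and BNC2) were higher, none lower (median 0.39). TCF21, a factor of the outer heart layer, was not called, at 138 CPM in SAN, 15.9 in At, 140.0 in AVJ and 23.3 in Vent, against 105 in PMF. The list summed to 934 CPM in SAN, 414 in At, 963 in AVJ, 354 in Vent and 731 in PMF, so SAN, AVJ and PMF lay above At and Vent.

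**Figure D5:**
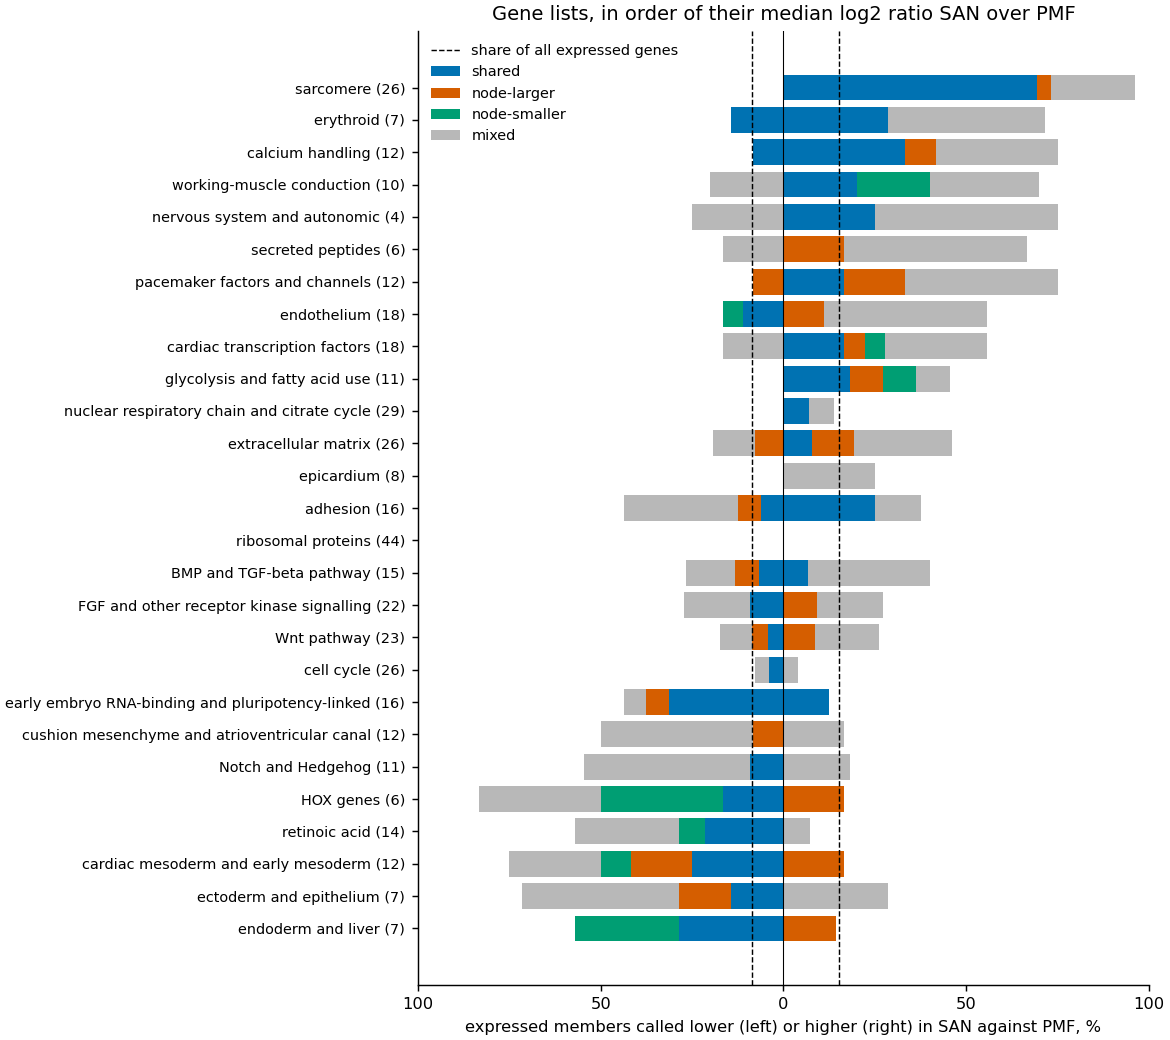
Share of each list's expressed members (number in brackets) called lower (left) or higher (right) in SAN against PMF, coloured by class, with lists in order of median log2 ratio and dashed lines at the shares of all expressed genes (15.3% higher, 8.55% lower). The sarcomere list has 25 of 26 members higher and the HOX list 5 of 6 lower, of which 2 fell less in SAN than elsewhere in the heart.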

How the data were processed

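RNA of the 8 pools was extracted with Trizol, selected for poly(A) and sequenced from both ends (36 bases), per the labels' protocols. The submitters' processing notes name TopHat and Bowtie but no version. No source used here gives the build, the annotation, the counting program or whether strand was used. The deposited tables list 17778 genes, with read counts per gene for 7 libraries and CPM, counts over the library's total, for all 8, per the file headers. The deposited count columns stand in other libraries' tables and were taken by the name in the header, where they gave back the same library's CPM to within 4.9e-11. Counts of Post were recovered from its CPM, of which 100% were whole multiples of 1 read within 0.01. Both checks used every value.

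Names were matched to chicken RefSeq symbols (assembly GRCg7b, used for names and neighbouring genes only): 8693 genes carry a symbol, and 98 matches were dropped where neighbours differed. SHOX2, TBX18 and MYL7 are not analysed here, and some other genes are not reported here. Counts were scaled with TMM factors over all 8 libraries (edgeR 4.0.16), from 0.848 in At to 1.18 in Left, 0.991 in SAN and 1.15 in PMF. 1 read was worth 0.0718 CPM in SAN and 0.0541 in PMF. Ratios are log2 of CPM + 1, which understates the change of low genes. Fold changes are ratios of CPM with exact (Clopper-Pearson) 95% intervals from the counts. PCR copies are not independent molecules, so the true intervals are wider. A floor of 3 counts stands for 0. No model was fitted, since each group has 1 library, and whether pools or animals vary was not tested. The calling and sorting steps were tested on simulated data that held counting error only, with large changes put into well expressed genes. That test cannot show how the calls hold between pools or near the thresholds.

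The 27 gene lists (526 of 946 genes found) and the rules for classes were chosen with earlier results of these data known. Named genes are those at 10 CPM or more with the largest ratio or distance in each class (12 shared higher, 10 shared lower, 14 node-larger higher, up to 10 node-larger lower, of which 9 qualified, and up to 10 each way among changes SAN lacks, of which 10 and 8 did), all opposite and field genes, up to 4 called members of each list in each direction, and a short set of pacemaker, heart and mesoderm genes. Other genes are named for a count of 5 or fewer or as members of a marker list, after their values were seen. Alternatives were other scalings (plain CPM and DESeq2 1.42.0 size factors), pseudocounts of 0.25 and 4 CPM, minimum levels of 0 and 20 CPM, a 3-fold threshold, another mesoderm library for PMF, and leaving out 1 heart library.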

Additional observations from a re-analysis of the deposited data

Results flagged for a closer look

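ISL1 and FLRT3 drew attention because their log2 ratio to PMF had opposite signs in SAN and in each of At, AVJ and Vent. ISL1 was at 1.35 in SAN, and FLRT3 at 1.68. With 1 library a group the difference was not tested. ISL1 rested on 245 counts in SAN, 5 in At, 8 in AVJ, 4 in Vent and 116 in PMF. FLRT3 had 1645 counts in SAN, 108 in At, 194 in AVJ, 36 in Vent and 669 in PMF.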

How the results depend on the processing

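No paired analysis was possible because each group is 1 library. Scaling by DESeq2 size factors left every count within 1.5 times its value, as did Left, ant or Post in place of PMF for the called genes (1502 to 1597 higher and 832 to 920 lower). The members changed more than these totals. Of the 1504 higher calls 1356 were kept with Left, 1339 with ant and 1361 with Post. Of the 840 lower calls 668, 664 and 706 were kept, so most calls held against any of these mesoderm libraries. Plain CPM gave 1261 genes lower, 335 shared higher, 706 shared lower and 9 that rose less in SAN, and 17 and 28 changes that SAN lacks (higher and lower in the other 3). Of the 116 node-larger higher genes 110 remained among 151. A pseudocount of 0.25 CPM gave 30 genes that fell less in SAN. With 4 CPM 13 node-larger lower genes, 8 that fell less, 13 and 8 changes that SAN lacks and 1 opposite gene were left. With no minimum level 28 genes rose less in SAN, 20 lower changes were lacking and 8 field genes were called. A minimum of 20 CPM gave 850 higher and 478 lower genes, 332 and 182 shared, 67 and 12 node-larger, 8 that rose less, 19 and 7 lacking, 1 opposite (FLRT3) and 2 field genes (SCUBE3 and SCARB1). A 3-fold threshold gave 924 higher, 353 lower, 184 shared lower, 45 and 6 node-larger, 4 and 5 that changed less, 9 and 6 lacking and 0 opposite. Fewer heart libraries mean fewer conditions, so counts grew by construction. Without At 58 and 20 changes were lacking and 6 genes opposite. Without AVJ the node-larger genes were 197 and 36, those that changed less 32 and 32, lacking 62 and 45, and opposite 9. Without Vent 32 were node-larger lower, 28 rose less and 53 higher changes were lacking. Lists with a median above 0 were 16 of 27, and 13 to 16 under the alternatives. Beside the signs given above, the nervous system list had a median of -0.04 with no minimum, the Wnt list 0.53 and the adhesion list -0.21 at 20 CPM, and the ribosomal list -0.14 with ant and -0.20 with Post in place of PMF. For called genes among the 184 named ones the sign could not turn under the scalings and pseudocounts, so it is no check. A pseudocount is added to both libraries, and plain CPM moved the median gene by -0.20 against a threshold of 1. The causes of these shifts were not tested beyond the stricter or looser settings themselves. The lack of replicates and of stages for SAN, At and Vent limits every result, and counting error limits genes of a few counts.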
